A study of Mus musculus with 12 samples.

Results

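E0771 mammary tumors were compared between day 6 and day 3 of the first cycle of cyclophosphamide (CPA), to ask what differed in the tumor transcriptome at the end of the cycle from its midpoint. The members are the 4 RNA-seq libraries of these time points, 2 for day 6 and 2 for day 3, out of 12 libraries in the whole series. They were chosen by their time labels, not by any measured value. Every gene row of the deposited expression table was used, 24197 in all. The table gives 1 FPKM value per group, which is a fragment count divided by gene length and library size and is the authors' value over both libraries. No spread between libraries can be given and no test was run, so every difference below is a description of these pooled values.

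E0771 is a mouse mammary carcinoma line that was grown in female C57/BL6N mice. Mice of the day 6 group were 11 weeks old and were killed 6 days after a single CPA injection into the peritoneum. Mice of the day 3 group were 9 to 10 weeks old and were killed 3 days after the same injection, at 130 mg/kg per the labels. A library table of the study lists another dose, so the dose is uncertain. Vehicle mice of 9 to 10 weeks serve as the baseline of the series, which also holds tumors 1 and 2 days after CPA and 12 days after the first of 2 injections. A library of the day 1 group is labelled both as CPA and as vehicle, so day 1 values are shown only in a plot of the time course and for Hbb-b1. Each library was made from RNA pooled from 2 to 3 tumors. No vehicle tumors of day 6 were analysed here, so time since CPA, age and tumor growth cannot be told apart.

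CPA is a prodrug that liver enzymes convert into a DNA-alkylating agent, and it kills dividing cells of the tumor, the bone marrow and the lymphoid organs alike. Cells that detect nucleic acids or stress secrete type I interferons, which bind their receptor on nearby cells and switch on interferon-stimulated genes. Dendritic cells and macrophages then present tumor antigens on MHC class II to helper T cells, while cytotoxic T cells and natural killer (NK) cells kill their targets with perforin and granzymes. In bulk tumor RNA, more cells of a type and more RNA per cell cannot be told apart.

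Differences are given as log2 of day 6 over day 3 after 0.1 FPKM was added to each value, so positive values are higher on day 6, and differences of low genes are understated. These values follow each pair of levels in parentheses. A gene was counted as past 2-fold when it differed by more than 1 log2 unit and had a mean of at least 1 FPKM over both days. A gene below 1 FPKM on either day can reach this mean through the other day alone. Counts among genes at this level can therefore favor genes that differ. Of the 10575 gene rows with such a mean, 499 were higher on day 6 and 45 were lower, which is 4.72% and 0.426% of those rows. A short list with none past 2-fold is therefore near these shares. The median difference over all these rows was 0.02 and the middle 90% lay between -0.43 and 0.95. Past 4-fold there were 55 rows higher and 2 lower. Leaving small RNA rows aside, the genes with the largest differences included those of hemoglobin, Ear ribonucleases, T cells and NK cells among those higher, and those of skeletal muscle, the protease inhibitor Slpi, Klra receptors and interferon-stimulated genes among those lower.

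**Figure D1:**
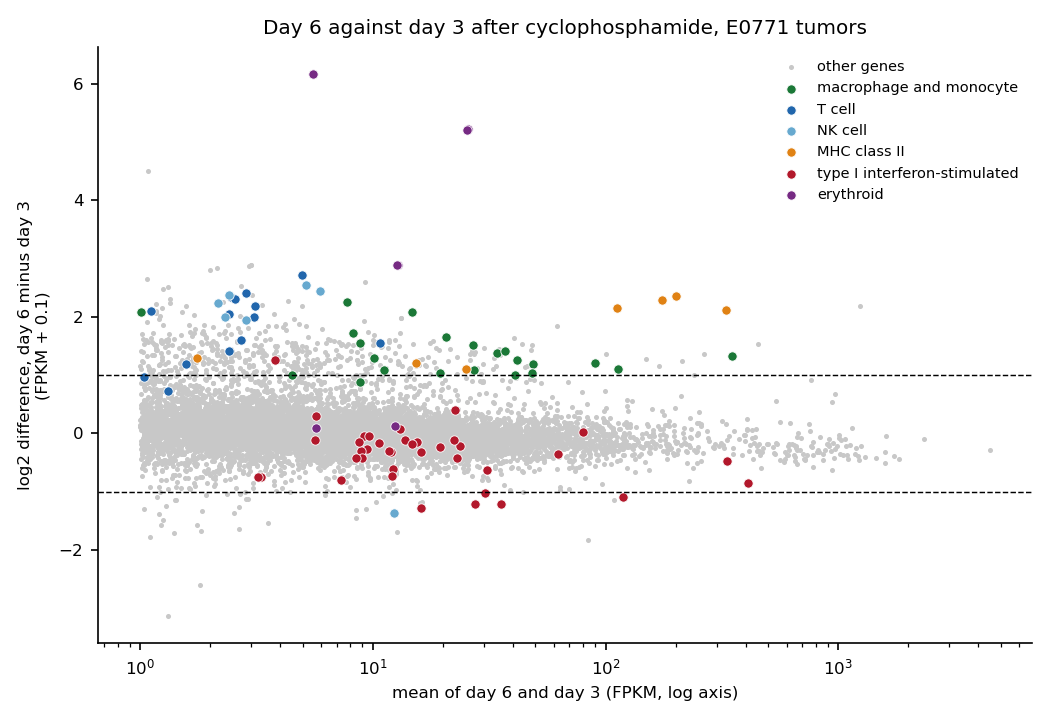
Each point is a gene row with a mean of at least 1 FPKM over day 6 and day 3, placed by that mean (x, log axis) and by the log2 difference, day 6 minus day 3 (y), with dashed lines at 2-fold. T cell, NK cell, macrophage and MHC class II genes lie mostly above the upper line, type I interferon-stimulated genes mostly below 0, and hemoglobin genes reach 5.21 and 6.16.

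The 499 genes that were higher on day 6 had on the whole not departed from vehicle by day 3. Their median level was 5.02 FPKM on day 6, against 1.73 FPKM on day 3, and 1.66 FPKM in vehicle tumors. On day 6, 438 of them were also past 2-fold over vehicle, while on day 3 12 were past 2-fold over it, 21 past 2-fold under it and 419 lay within 1.5-fold of vehicle. The 45 rows that were lower followed another course. They include 11 microRNA or snoRNA rows, against 39 among the 499. They also include 4 overlapping Klra rows, and so are not 45 separate genes. Their median level was 1.78 FPKM on day 6, against 4.03 FPKM on day 3, and 2.60 FPKM in vehicle tumors. On day 6, none of these was past 2-fold over vehicle, 25 lay within 1.5-fold of it and 9 were past 2-fold under it, whereas on day 3 26 were past 2-fold over vehicle. Both counts use the day 6 and day 3 values that chose the genes, and so describe them only.

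**Figure D2:**
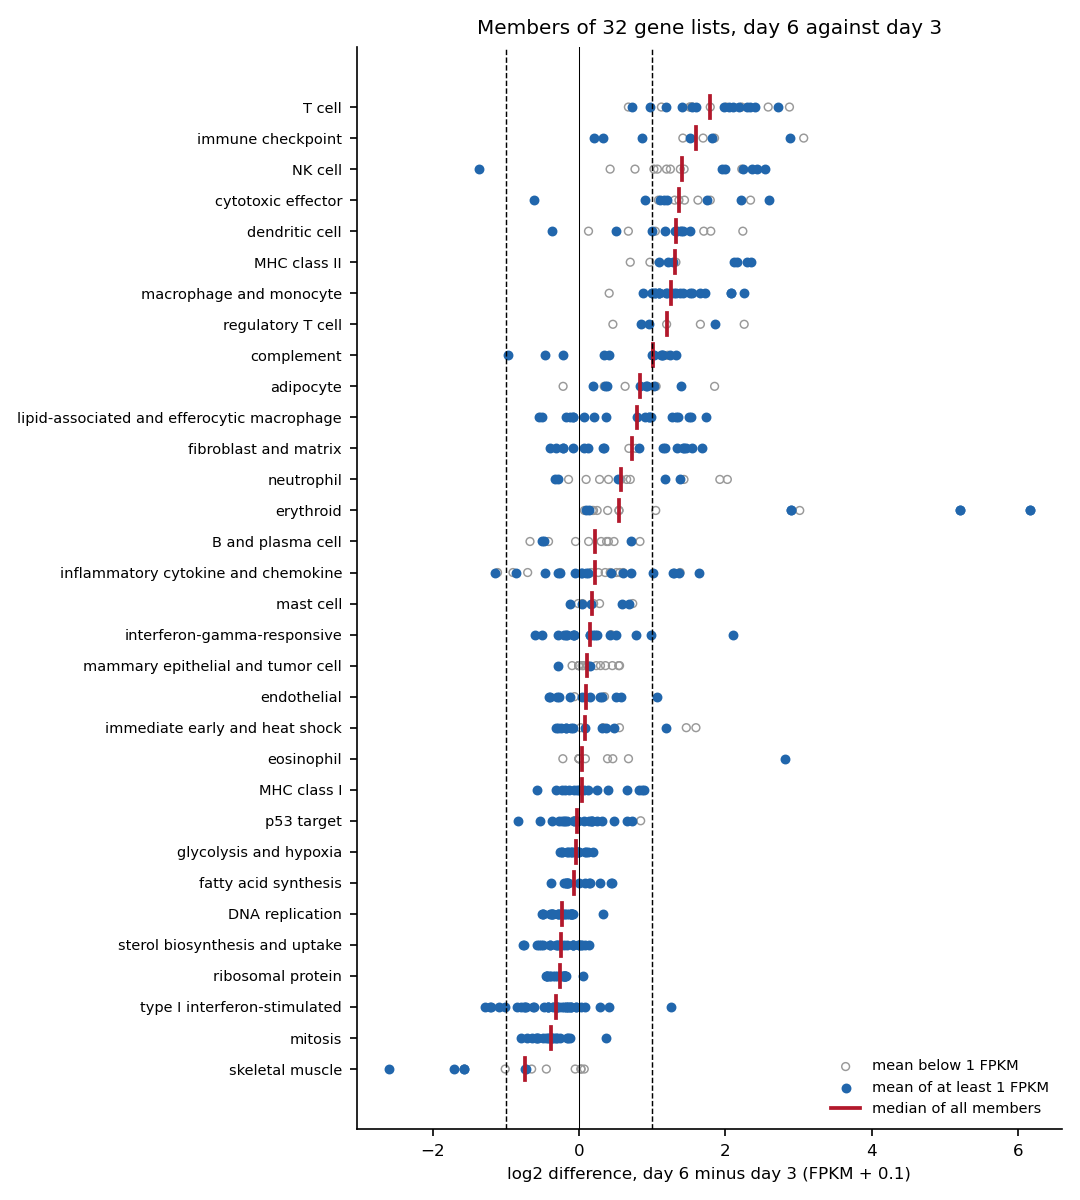
Each row is 1 of 32 gene lists and each point a member, placed by its log2 difference, day 6 minus day 3 (x). Filled points have a mean of at least 1 FPKM, open points lie below it, red bars mark the median of all members and dashed lines 2-fold. The T cell list has the highest median (1.79) and the skeletal muscle list the lowest (-0.73).

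T cell genes were higher on day 6 as a group. All 25 T cell genes in the table lay above day 3, with a median difference of 1.79, against 0.02 over all genes. Of the 14 with a mean of at least 1 FPKM, 12 were past 2-fold higher. Several of these, such as Cd3e, were below 1 FPKM on day 3 and reached that mean through day 6. The summed level of all 25 was 76.2 FPKM on day 6, against 19.2 FPKM on day 3, and 19.6 FPKM in vehicle tumors. The sums of day 3 and vehicle lie close together, so that day 6 alone stands apart. Cd3g (chr9:44777654-44788514 in mm9), a signaling chain of the T cell receptor complex, was listed at 8.67 FPKM on day 6, against 1.23 FPKM on day 3 (log2 2.72). Cd3e, another chain of that complex, was at 4.18 FPKM on day 6, against 0.748 FPKM on day 3 (log2 2.34).

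The coreceptors of killer and helper T cells differed unequally. Cd8a was at 4.84 FPKM on day 6, against 0.834 FPKM on day 3 (log2 2.40), and Cd8b1, its partner chain, at 4.33 FPKM on day 6, against 0.798 FPKM on day 3 (log2 2.30). Cd4, the helper coreceptor that some mouse dendritic cells also carry, was at 1.40 FPKM on day 6, against 0.668 FPKM on day 3 (log2 0.97), just under 2-fold. Signaling genes behind the receptor were higher too, with the kinase Lck at 4.97 FPKM on day 6, against 1.18 FPKM on day 3 (log2 1.99), and the kinase Zap70 at 1.88 FPKM on day 6, against 0.360 FPKM on day 3 (log2 2.10). Thy1, a surface protein of T cells and of fibroblasts, was at 16.1 FPKM on day 6, against 5.45 FPKM on day 3 (log2 1.54). The smallest difference in the list was that of Bcl11b, a transcription factor of T cell commitment, at 0.68, with both days under 0.3 FPKM.

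Killing genes were mostly higher on day 6, and differed in how far they already stood above vehicle on day 3. Of 15 cytotoxic effector genes, 14 lay above day 3 on day 6, 6 of 8 at 1 FPKM or more were past 2-fold higher, and the median difference was 1.37. Nkg7, a granule membrane protein of killer cells, was at 16.0 FPKM on day 6, against 2.55 FPKM on day 3 (log2 2.60), with vehicle at 2.48 FPKM. The protease Ctsw and the pore protein Prf1 were also nearer to vehicle on day 3 than on day 6, at 5.56 FPKM on day 6, against 1.13 FPKM on day 3, for Ctsw (log2 2.21), and at 2.93 FPKM on day 6, against 0.799 FPKM on day 3, for Prf1 (log2 1.75). In vehicle tumors Ctsw was at 0.840 FPKM and Prf1 at 0.632 FPKM. Gzma and Gzmb were further above vehicle on day 3. Gzma was at 7.38 FPKM on day 6, against 3.15 FPKM on day 3 (log2 1.21) and 0.977 FPKM in vehicle tumors. Gzmb was at 6.13 FPKM on day 6, against 3.25 FPKM on day 3 (log2 0.90) and 1.11 FPKM in vehicle tumors, so its day 6 value was not past 2-fold over day 3.

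Srgn, the proteoglycan that packs such granules and is made by many blood cells, was at 44.9 FPKM on day 6, against 20.7 FPKM on day 3 (log2 1.11). Ifng, the gene of interferon-gamma, was at 1.13 FPKM on day 6, against 0.396 FPKM on day 3 (log2 1.31), with a mean under 1 FPKM. Ccl5, a chemokine of killer cells that interferon also induces, was the single member lower on day 6, at 49.2 FPKM, against 75.2 FPKM on day 3 (log2 -0.61) and 25.2 FPKM in vehicle tumors.

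NK receptor genes were mostly higher, with a group of Klra rows as the exception. Of 16 NK cell genes, 15 lay above day 3, and of the 7 at 1 FPKM or more 6 were past 2-fold higher and 1 past 2-fold lower. Il2rb, the receptor chain through which IL-2 and IL-15 act on NK and T cells, was at 8.85 FPKM on day 6, against 1.43 FPKM on day 3 (log2 2.54). Klrd1, which pairs with the Klrc receptors, was at 10.1 FPKM on day 6, against 1.79 FPKM on day 3 (log2 2.43), and Klrc1 was at 4.12 FPKM on day 6, against 0.717 FPKM on day 3 (log2 2.37). Klre1, another lectin-like receptor, was at 3.62 FPKM on day 6, against 0.689 FPKM on day 3 (log2 2.24). Ncr1, the activating receptor that defines NK cells, stayed under 1 FPKM on both days, at 0.550 on day 6 against 0.183 on day 3. Activated T cells also express Il2rb, Klrd1 and Klrc1.

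The Klra genes encode Ly49 receptors of NK cells for MHC class I and are near-identical copies in 1 cluster. Klra4 was at 6.86 FPKM on day 6, against 17.8 FPKM on day 3 (log2 -1.36) and 3.98 FPKM in vehicle tumors. The rows Klra15, Klra18 and Klra12 had the same course, with log2 differences of -1.44, -1.31 and -1.30. Their listed positions overlap that of Klra4, so these rows may repeat its signal and not stand for separate genes. Klra7, another member, was higher on day 6, at 0.897 FPKM against 0.282 FPKM on day 3 (log2 1.39). Reads of such copies can be split between rows in counting, so which Klra gene differed is uncertain. Apart from Klra4, each NK list member named here was higher on day 6.

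Inhibitory receptors of activated T cells differed unequally, with Pdcd1 among the largest differences of all genes. Pdcd1 (chr1:95934881-95949130 in mm9), the gene of PD-1, was at 5.24 FPKM on day 6, against 0.627 FPKM on day 3, 7.34-fold on the scale used (log2 2.88). Havcr2, the gene of TIM-3, which macrophages and dendritic cells also express, was at 4.16 FPKM on day 6, against 1.11 FPKM on day 3 (log2 1.82). Lag3, a receptor that competes with CD4 for MHC class II, was at 3.21 FPKM on day 6, against 1.06 FPKM on day 3 (log2 1.51). In all, 3 of 6 checkpoint genes at 1 FPKM or more were past 2-fold higher. Tigit, another inhibitory receptor of T and NK cells, was at 6.67 FPKM on day 6, against 5.79 FPKM on day 3 (log2 0.20). The ligand Cd274 (PD-L1), which interferons induce, was at 9.13 FPKM on day 6, against 7.25 FPKM on day 3 (log2 0.33), and Vsir (VISTA), a receptor of myeloid and T cells, at 12.7 FPKM on day 6, against 6.92 FPKM on day 3 (log2 0.86).

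Genes of regulatory T cells were low throughout. Foxp3, their defining transcription factor, was listed at 0.198 FPKM on day 6, against 0.0298 FPKM on day 3. Ctla4, an inhibitory receptor of regulatory and activated T cells, was at 1.55 FPKM on day 6, against 0.0964 FPKM on day 3, with a mean under 1 FPKM. Tnfrsf18 (GITR), a receptor of regulatory and activated T cells, was at 3.00 FPKM on day 6, against 0.752 FPKM on day 3 (log2 1.86). It was the single member past 2-fold of the 3 with a mean of at least 1 FPKM. Tnfrsf4 (OX40) was at 3.03 FPKM on day 6, against 1.51 FPKM on day 3 (log2 0.96).

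Macrophage and monocyte genes were the largest group past 2-fold. Of 23 genes, all lay above day 3, and 21 of the 22 at 1 FPKM or more were past 2-fold higher, with a median difference of 1.26. Their summed level was 1376 FPKM on day 6, against 570.3 FPKM on day 3, and 443 FPKM in vehicle tumors. Ccr2 (chr9:124016921-124023879 in mm9), the receptor that draws monocytes out of the blood toward Ccl2, was at 12.9 FPKM on day 6, against 2.62 FPKM on day 3 (log2 2.26). Csf1r, the receptor that macrophages need to survive, was at 23.9 FPKM on day 6, against 5.57 FPKM on day 3 (log2 2.08). Both were a little below vehicle on day 3, at 3.23 FPKM for Ccr2 and 7.26 FPKM for Csf1r in vehicle tumors.

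Mrc1, the mannose receptor of resident and alternatively activated macrophages, was at 12.7 FPKM on day 6, against 3.78 FPKM on day 3 (log2 1.72), and the fractalkine receptor Cx3cr1 at 1.70 FPKM on day 6, against 0.325 FPKM on day 3 (log2 2.08). Itgam (CD11b), an integrin of macrophages, neutrophils and NK cells, was at 13.1 FPKM on day 6, against 4.42 FPKM on day 3 (log2 1.55). Cd68, a lysosomal protein of macrophages, was at 67.5 FPKM on day 6, against 29.7 FPKM on day 3 (log2 1.18). The most abundant members had smaller differences. Lyz2, the lysozyme of myeloid cells, was at 502 FPKM on day 6, against 200.0 FPKM on day 3 (log2 1.33), and Fcer1g, the signaling chain shared by activating Fc receptors, at 154 FPKM on day 6, against 71.8 FPKM on day 3 (log2 1.10). The scavenger receptors Msr1 (log2 0.88) and Cd163 (log2 0.41) were the members not past 2-fold.

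Spi1, which encodes the transcription factor PU.1 of macrophages, was at 37.04 FPKM on day 6, against 17.3 FPKM on day 3 (log2 1.09). PU.1 binds DNA at purine-rich sites around GGAA, and GAGGAA was searched on both strands of the promoter windows (250 bases before to 50 after the start site, RefSeq, GRCm38.p6), counting a gene when any of its windows held the letters. Of the 346 genes higher past 2-fold that had a window, 48.6% held it, against 30.5% of 8233 genes with a mean of at least 1 FPKM and 31.3% of all 27025 genes with a window. Those 346 genes were chosen by their values on day 6 and day 3, so the shares describe them only. In the macrophage list 9 of 16 genes with a window held it, and in the T cell list 9 of 15. The letters were thus not particular to the macrophage list, and a part of PU.1 in the differences was not tested. Such a match is a run of letters and says nothing of binding. As examples of how the sites lie, the 150 bases before the start of Itgam (chr7:128062490-128062639, plus strand) and Mrc1 (chr2:14229264-14229413, plus strand) are shown, with GAGGAA, read on either strand, in capitals:
Itgam: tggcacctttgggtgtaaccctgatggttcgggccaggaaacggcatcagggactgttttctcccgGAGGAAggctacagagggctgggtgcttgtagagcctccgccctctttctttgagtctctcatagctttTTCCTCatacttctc
Mrc1: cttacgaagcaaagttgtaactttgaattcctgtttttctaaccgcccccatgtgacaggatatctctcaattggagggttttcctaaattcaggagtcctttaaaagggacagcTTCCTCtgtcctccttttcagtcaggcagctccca

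Genes of lipid-laden macrophages that clear dying cells differed unevenly. 6 of 20 at 1 FPKM or more were past 2-fold higher, 7 of all 21 lay below day 3, and the median difference was 0.79. Apoe, a carrier of cholesterol and other lipids, had the largest difference in FPKM of any gene past 2-fold, at 669 FPKM on day 6, against 232 FPKM on day 3 (log2 1.53). Abca1, the pump that hands cholesterol to apolipoproteins, was at 4.18 FPKM on day 6, against 1.18 FPKM on day 3 (log2 1.74), and Cd36, a receptor for oxidized lipids, at 6.86 FPKM on day 6, against 2.35 FPKM on day 3 (log2 1.504). Ctss, a lysosomal protease of antigen-presenting cells, was at 381 FPKM on day 6, against 149 FPKM on day 3 (log2 1.36). Lgals3 (galectin-3), which tumor cells also make, was level at 417 FPKM on day 6, against 397 FPKM on day 3 (log2 0.07). Spp1 (osteopontin) was at 63.7 FPKM on day 6, against 93.5 FPKM on day 3 (log2 -0.55), both above the 22.5 FPKM of vehicle tumors.

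Complement genes split by component. C1qb and C1qc, chains of the C1q molecule that starts the classical pathway, were at 301 FPKM on day 6, against 127 FPKM on day 3, for C1qb (log2 1.25), and at 235 FPKM on day 6, against 106 FPKM on day 3, for C1qc (log2 1.15). The third chain, C1qa, was at 319 FPKM on day 6, against 159.6 FPKM on day 3, and at log2 1.00 was just short of 2-fold. Cfp (properdin), which stabilizes the alternative pathway, was at 61.9 FPKM on day 6, against 28.1 FPKM on day 3 (log2 1.14). Itgax (CD11c), part of a complement receptor of dendritic cells and macrophages, was at 10.3 FPKM on day 6, against 4.01 FPKM on day 3 (log2 1.33). C2, an early protease of the cascade, went the other way, at 10.8 FPKM on day 6, against 21.3 FPKM on day 3 (log2 -0.98), and C1s1 and C1ra, proteases that act with C1q, were at -0.46 and -0.22 on the log2 scale. In this list 7 of 13 genes at 1 FPKM or more were past 2-fold higher and none lower.

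MHC class II genes were far higher on day 6. All 10 class II genes lay above day 3, and all 7 with a mean of at least 1 FPKM were past 2-fold higher. Their summed level was 1403 FPKM on day 6, against 315 FPKM on day 3, and 462 FPKM in vehicle tumors, so the day 3 sum was the lowest of these. H2-Aa (chr17:34419695-34424716 in mm9), the alpha chain of the I-A molecule, was at 337 FPKM on day 6, against 65.7 FPKM on day 3 (log2 2.36), and H2-Ab1, its beta chain, at 289.6 FPKM on day 6, against 59.0 FPKM on day 3 (log2 2.29). H2-Eb1, the beta chain of I-E, was at 183 FPKM on day 6, against 40.9 FPKM on day 3 (log2 2.16). Cd74, the invariant chain that guards the class II groove, was at 534 FPKM on day 6, against 122 FPKM on day 3 (log2 2.12).

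Ciita, the coactivator without which class II genes stay silent, was at 1.97 FPKM on day 6, against 0.381 FPKM on day 3 (log2 2.11), with 0.621 FPKM in vehicle tumors. The peptide-loading genes H2-DMa (log2 1.21), H2-DMb1 (log2 1.10) and H2-DMb2 (log2 1.29) differed less than the antigen-presenting chains. Class II promoters are known for an X box and an inverted CCAAT (Y) box just before the start, at which RFX, NF-Y and CIITA assemble. The letters ATTGG of the Y box, on either strand, stood in the windows of all 8 class II genes that have one, against 41.1% of all genes. They also stood in those of 16 of 17 sterol genes with a window, a list whose median lay below day 3. The 150 bases before the start are shown for the pair with both a large difference and a window, H2-Aa (chr17:34287824-34287973, minus strand) and H2-Eb1 (chr17:34305717-34305866, plus strand), with ATTGG or its reverse complement in capitals:
H2-Aa: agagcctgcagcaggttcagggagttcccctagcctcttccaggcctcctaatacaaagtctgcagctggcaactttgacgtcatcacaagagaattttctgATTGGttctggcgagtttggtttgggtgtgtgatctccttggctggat
H2-Eb1: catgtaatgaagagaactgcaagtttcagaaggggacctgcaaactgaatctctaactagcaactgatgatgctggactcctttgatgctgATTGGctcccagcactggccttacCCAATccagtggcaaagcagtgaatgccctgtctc

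MHC class I genes did not share in this. None of 16 class I and peptide-supply genes was past 2-fold in either direction, and their median difference was 0.03. Over all genes 4.72% were past 2-fold higher and 0.426% lower, so that count is near the general shares. B2m, the light chain of every class I molecule, was at 1002 FPKM on day 6, against 1017 FPKM on day 3 (log2 -0.02), and H2-D1, a heavy chain, at 838 FPKM on day 6, against 956 FPKM on day 3 (log2 -0.19). Both days stood above the 670.1 FPKM (B2m) and 720.2 FPKM (H2-D1) of vehicle tumors. The highest member was H2-Q7, a nonclassical heavy chain, at 0.89.

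Dendritic cell genes were higher at low levels. 7 of 9 at 1 FPKM or more were past 2-fold higher, and the median over all 16 was 1.33. With 1 FPKM added in place of 0.1, 3 of the 9 were past 2-fold. Batf3, a transcription factor of cross-presenting dendritic cells, was at 6.99 FPKM on day 6, against 2.55 FPKM on day 3 (log2 1.42). Cd86, a costimulatory ligand for T cells, was at 4.94 FPKM on day 6, against 1.89 FPKM on day 3 (log2 1.34). The chemokines Ccl22 and Ccl17, both ligands of Ccr4, were at 2.30 FPKM on day 6, against 0.742 FPKM on day 3, for Ccl22 (log2 1.51), and at 1.54 FPKM on day 6, against 0.523 FPKM on day 3, for Ccl17 (log2 1.40). Xcr1 and Clec9a, which define the cross-presenting subset, stayed under 0.3 FPKM on both days. Clec10a, a lectin of other dendritic cells and macrophages, was at 7.46 FPKM on day 6, against 3.68 FPKM on day 3 (log2 1.00), barely past 2-fold. Fscn1, an actin bundler that tumor cells also express, was at 70.4 FPKM on day 6, against 90.6 FPKM on day 3 (log2 -0.36).

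Type I interferon-stimulated genes went the other way. Of 39 in the table, 34 lay below day 3 on day 6, with a median difference of -0.32, and 5 of the 38 at 1 FPKM or more were past 2-fold lower. Those 5 are 13.2% of the list at that level, beside 0.426% of all genes. The summed level was 1184 FPKM on day 6, against 1773 FPKM on day 3, and 1019 FPKM in vehicle tumors. On day 6, 20 members lay within 1.5-fold of vehicle and 6 were past 2-fold over it, against 4 and 18 on day 3. The median difference was no larger than that of genes every cell uses. Of 81 cytosolic ribosomal protein rows, 74 lay below day 3, with a median of -0.31 but none past 2-fold lower.

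Ifi44, an interferon-induced cytoplasmic protein, was at 9.31 FPKM on day 6, against 22.8 FPKM on day 3 (log2 -1.28), with 7.76 FPKM in vehicle tumors. Usp18, which removes the ubiquitin-like protein ISG15 from its targets and dampens the interferon receptor, was at 21.3 FPKM on day 6, against 49.6 FPKM on day 3 (log2 -1.21), with 24.3 FPKM in vehicle tumors. Isg15 (chr4:155573532-155574927 in mm9) itself was at 76.1 FPKM on day 6, against 163 FPKM on day 3 (log2 -1.10), with 72.9 FPKM in vehicle tumors. On day 6 these genes had values near those of vehicle. Ifit1, which binds viral RNA ends, was at 16.6 FPKM on day 6, against 38.4 FPKM on day 3 (log2 -1.21), and Rsad2 (viperin), an antiviral enzyme, at 20.1 FPKM on day 6, against 40.7 FPKM on day 3 (log2 -1.01). With 1 FPKM added in place of 0.1, Rsad2 came to -0.98 and was no longer past 2-fold.

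Other members differed less. Mx1, an antiviral GTPase, was at 9.00 FPKM on day 6, against 9.25 FPKM on day 3 (log2 -0.04), with 4.16 FPKM in vehicle tumors. Irf7, the factor that amplifies interferon-alpha production, was at 80.5 FPKM on day 6, against 79.1 FPKM on day 3 (log2 0.03), with 36.0 FPKM in vehicle tumors. Oasl1, an interferon-induced protein of the OAS family, was at 14.3 FPKM on day 6, against 17.8 FPKM on day 3 (log2 -0.32). The abundant members Bst2 (tetherin) and Ifitm3, both of which block viruses at membranes, were at 291 FPKM on day 6, against 525 FPKM on day 3, for Bst2 (log2 -0.85), and at 279 FPKM on day 6, against 389 FPKM on day 3, for Ifitm3 (log2 -0.48). Siglec1, a sialic acid receptor of macrophages, was the single member past 2-fold higher, at 5.40 FPKM on day 6, against 2.20 FPKM on day 3 (log2 1.26).

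The interferon-stimulated response element, a motif of the promoters of such genes, was searched on both strands as GAAA, any 2 bases and GAAA. It stood in the windows of 17 of 28 listed genes with a window (60.7%), against 3.99% of all genes. It also stood in 10 of 13 interferon-gamma-responsive genes with a window (76.9%), whose median difference was not below 0. Among all genes lower past 2-fold it stood in 6 of 25 with a window, and among those higher in 29 of 346 (8.38%). Of the 5 listed genes past 2-fold lower, 4 have a window and 3 of these hold the element. Ifi44, which had the largest difference of the 5, has a window without it. The 150 bases before the start are shown for the 3 listed genes that were past 2-fold lower and held the element, Isg15 (chr4:156200819-156200968, minus strand), Ifit1 (chr19:34640739-34640888, plus strand) and Rsad2 (chr12:26456453-26456602, minus strand), with the element in capitals:
Isg15: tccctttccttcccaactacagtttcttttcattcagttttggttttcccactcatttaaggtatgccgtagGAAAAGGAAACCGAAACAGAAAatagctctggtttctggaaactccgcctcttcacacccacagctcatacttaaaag
Ifit1: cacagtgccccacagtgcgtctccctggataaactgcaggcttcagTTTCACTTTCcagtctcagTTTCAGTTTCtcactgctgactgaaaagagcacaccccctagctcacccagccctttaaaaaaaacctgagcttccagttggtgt
Rsad2: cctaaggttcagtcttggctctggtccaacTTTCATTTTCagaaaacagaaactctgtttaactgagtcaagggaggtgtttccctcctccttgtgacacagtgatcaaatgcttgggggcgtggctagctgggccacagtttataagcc

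In Isg15 the letters match at 3 overlapping positions that form 1 run, in Ifit1 at 2 separate positions, and in Rsad2 at 1, 120 bases before the start. Each of these elements lies within 120 bases of the start.

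**Figure D3:**
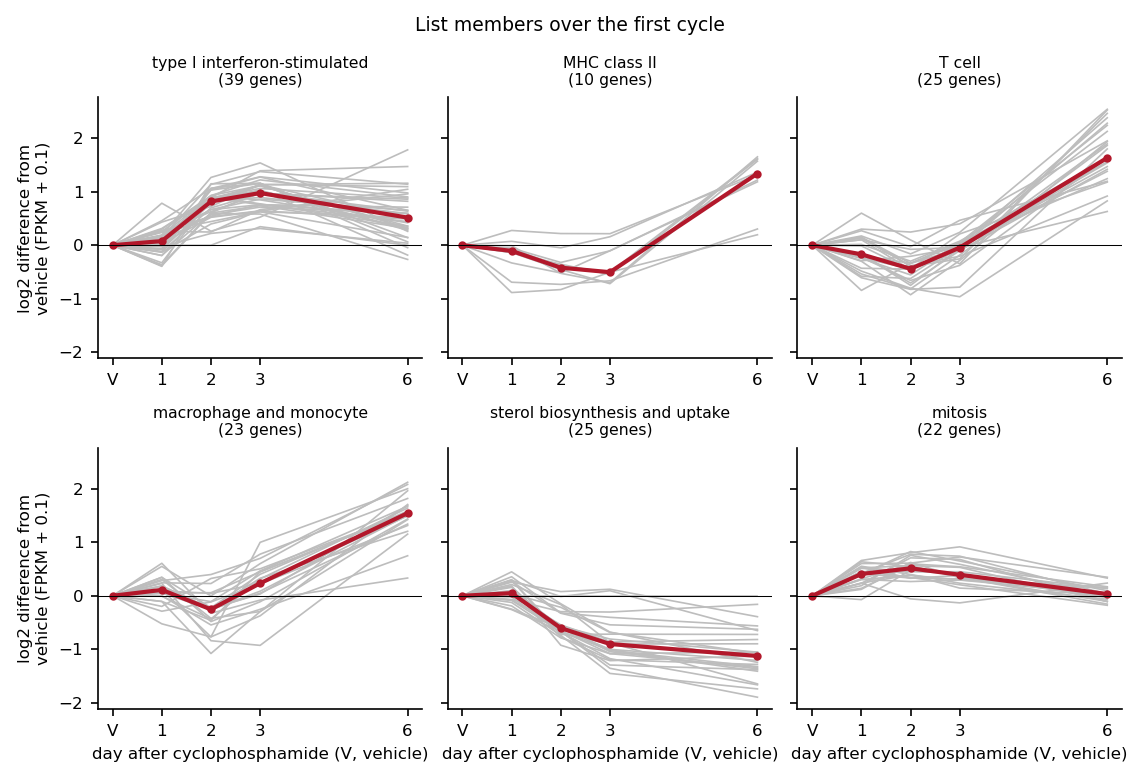
Log2 difference from vehicle (y, FPKM + 0.1) against day after CPA (x, V for vehicle), with a grey line for each list member and a red line for the median. The interferon-stimulated median is 0.98 on day 3 and 0.52 on day 6, while the T cell, macrophage and MHC class II medians lie between -0.50 and 0.24 on day 3 and between 1.34 and 1.64 on day 6.

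Genes that respond to interferon-gamma differed in both directions. 11 of 20 lay above and 9 below day 3, with a median difference of 0.15 and summed levels of 304 FPKM on day 6, against 300.4 FPKM on day 3. Vehicle tumors had 162 FPKM in sum. Ciita, at log2 2.11, was the single member of 19 at 1 FPKM or more past 2-fold higher, and none was past 2-fold lower. Irf8, a transcription factor of monocytes and dendritic cells, was at 14.6 FPKM on day 6, against 7.31 FPKM on day 3 (log2 0.99). Cxcl10, a ligand of Cxcr3, a chemokine receptor of T cells, was at 37.6 FPKM on day 6, against 53.4 FPKM on day 3 (log2 -0.51), and Cxcl11, another such ligand, at 1.63 FPKM on day 6, against 2.01 FPKM on day 3 (log2 -0.29). Cxcl9, the third ligand, was at 19.1 FPKM on day 6, against 11.1 FPKM on day 3 (log2 0.78). The GTPases Gbp2 and Igtp, which attack vacuoles of microbes, were at 40.4 FPKM on day 6, against 30.1 FPKM on day 3, for Gbp2 (log2 0.42), and at 32.3 FPKM on day 6, against 36.5 FPKM on day 3, for Igtp (log2 -0.17).

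Chemokines went both ways. Ccl2 (chr11:81849078-81850954 in mm9), which attracts monocytes through Ccr2, was at 67.9 FPKM on day 6, against 151 FPKM on day 3 (log2 -1.15), with 47.5 FPKM in vehicle tumors. Ccl7, a close relative that binds the same receptor, was at 68.9 FPKM on day 6, against 125 FPKM on day 3 (log2 -0.86), with 45.6 FPKM in vehicle tumors. Ccl2 and Ccl7 were thus lower on day 6 while their receptor gene Ccr2 was higher. Ccl12, of the same list, was nearly level at 19.6 FPKM on day 6, against 20.4 FPKM on day 3 (log2 -0.06). Ccl8, which binds Ccr8 in mice, was at 211 FPKM on day 6, against 87.0 FPKM on day 3 (log2 1.28), and Ccl6, a macrophage chemokine, at 47.0 FPKM on day 6, against 19.1 FPKM on day 3 (log2 1.30). Cxcl16, a membrane-bound ligand of Cxcr6 on T cells, was at 37.7 FPKM on day 6, against 14.5 FPKM on day 3 (log2 1.37). Here ligand and receptor were both higher, with Cxcr6 at 3.83 FPKM on day 6, against 0.449 FPKM on day 3 (log2 2.84). Arg1 (arginase), an enzyme of alternatively activated macrophages, was at 4.82 FPKM on day 6, against 1.49 FPKM on day 3 (log2 1.63). Of the 18 cytokine and chemokine genes at 1 FPKM or more, 5 were past 2-fold higher and 1 lower.

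Further genes with the largest differences downward belong to no list. Slpi (chr2:164179805-164182243 in mm9), an inhibitor of neutrophil elastase made by epithelial cells and macrophages, was at 5.95 FPKM on day 6, against 19.5 FPKM on day 3 (log2 -1.70), with 4.90 FPKM in vehicle tumors. Apol9a was at 9.64 FPKM on day 6, against 22.3 FPKM on day 3 (log2 -1.20). Gchfr, the feedback protein of the enzyme that starts tetrahydrobiopterin synthesis, was at 6.29 FPKM on day 6, against 14.3 FPKM on day 3 (log2 -1.17). Slpi and Apol9a had already reached most of their day 3 level on day 2, at 17.0 and 23.7 FPKM.

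**Figure D4:**
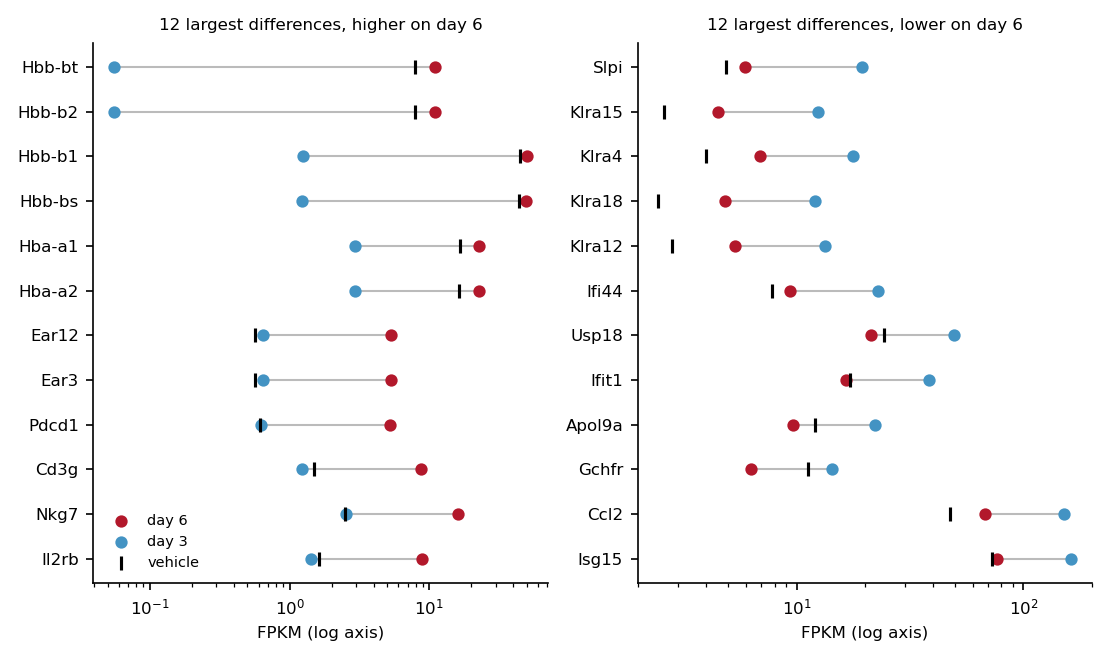
FPKM (x, log axis) of the 12 genes with the largest difference in each direction among those past 2-fold with at least 5 FPKM on either day, for day 6 (red), day 3 (blue) and vehicle (black bar). Of the genes lower on day 6, Ifit1 and Isg15 lie on the vehicle bar on day 6, and of the genes higher, Pdcd1 and Nkg7 lie on it on day 3.

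Beta-globin genes had the largest differences of all rows. Hbb-b1 (chr7:110975045-110976443 in mm9), a beta-globin gene, was at 50.03 FPKM on day 6, against 1.25 FPKM on day 3 (log2 5.21), with 44.5 FPKM in vehicle tumors. It had already been lower than vehicle on day 1, at 7.15 FPKM, and on day 2, at 1.69 FPKM. Hba-a1, an alpha-globin gene, was at 22.7 FPKM on day 6, against 2.96 FPKM on day 3 (log2 2.89), with 16.5 FPKM in vehicle tumors. Hbb-b2 was at 11.0 FPKM on day 6, against 0.0554 FPKM on day 3 (log2 6.16). The day 3 value is so low that its ratio is uncertain. Hbb-bt has the same values as Hbb-b2 and the rows Hbb-bs and Hba-a2 nearly those of Hbb-b1 and Hba-a1, so 6 rows past 2-fold stand for 3 sets of values. Alas2, the erythroid enzyme of heme synthesis, was at 0.804 FPKM on day 6, against 0.0117 FPKM on day 3. The other erythroid genes were low or level, with Tfrc, the transferrin receptor that dividing cells also need, at 13.0 FPKM on day 6, against 11.8 FPKM on day 3 (log2 0.13). Red blood cells and their precursors carry these transcripts, and the part of blood held in the tumors in the other differences was not tested.

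Other blood cell lists gave few genes past 2-fold. Ear2, an RNase of eosinophils and macrophages, was at 3.56 FPKM on day 6, against 0.422 FPKM on day 3 (log2 2.81), and the near-identical Ear3 and Ear12 rows shared values of 5.37 FPKM on day 6, against 0.642 FPKM on day 3 (log2 2.88), so which Ear gene differed is uncertain. Epx and Prg2, which define eosinophils, were listed at 0 on both days and Ccr3 at 0.190 FPKM on day 6, against 0.0817 FPKM on day 3. Of 15 neutrophil genes, 12 lay above day 3 and 3 below, with a median difference of 0.57, and 10 had a mean under 1 FPKM. S100a9, one of those 10, was at 1.04 FPKM on day 6, against 0.200 FPKM on day 3. S100a8 was at 2.98 FPKM on day 6, against 2.03 FPKM on day 3 (log2 0.53). Csf3r and Il1r2, receptors of neutrophils and monocytes, were past 2-fold higher. Csf3r was at 4.48 FPKM on day 6, against 1.65 FPKM on day 3 (log2 1.38), and Il1r2 at 1.71 FPKM on day 6, against 0.704 FPKM on day 3 (log2 1.17). Mmp9, a protease of neutrophil granules that macrophages and tumor cells also secrete, was at 3.07 FPKM on day 6, against 3.87 FPKM on day 3 (log2 -0.32). No B cell or mast cell gene was past 2-fold, with Cd79b, a chain of the B cell receptor, at 2.12 FPKM on day 6, against 1.26 FPKM on day 3 (log2 0.71). The mast cell protease Mcpt4 was at 6.98 FPKM on day 6, against 6.80 FPKM on day 3 (log2 0.04), and the protease Cma1 at 6.36 FPKM on day 6, against 5.66 FPKM on day 3 (log2 0.16). Sdc1, a plasma cell marker that epithelial cells also carry, was at 58.3 FPKM on day 6, against 81.1 FPKM on day 3 (log2 -0.48).

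Genes of the tumor stroma were higher in part. 8 of 18 fibroblast and matrix genes at 1 FPKM or more were past 2-fold higher and none lower. With 1 FPKM added 4 were, and of the 13 with a mean of at least 5 FPKM 4 were. Col1a1 and Col1a2, the chains of type I collagen, were at 31.5 FPKM on day 6, against 11.5 FPKM on day 3, for Col1a1 (log2 1.44), and at 15.4 FPKM on day 6, against 4.74 FPKM on day 3, for Col1a2 (log2 1.68), and both were lower on day 3 than the 20.7 and 7.15 FPKM of vehicle tumors. Lum, a proteoglycan that organizes collagen, was at 1.76 FPKM on day 6, against 0.574 FPKM on day 3 (log2 1.47). The most abundant members did not take part. Sparc, a collagen-binding protein, was at 176 FPKM on day 6, against 167 FPKM on day 3 (log2 0.07), and Col6a1 at 101 FPKM on day 6, against 125 FPKM on day 3 (log2 -0.31). Of 12 endothelial genes at 1 FPKM or more, 1 was past 2-fold higher (8.33%, beside 4.72% of all genes). This was the clotting protein Vwf, at 1.73 FPKM on day 6, against 0.771 FPKM on day 3 (log2 1.07). The abundant Eng (log2 -0.27) and Egfl7 (log2 -0.39) lay below day 3.

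Genes of tissue next to the tumor differed as well. Of the fat cell genes, 12 of 13 lay above day 3, with a median difference of 0.84, but only 2 of 8 at 1 FPKM or more were past 2-fold higher, and 0 with 1 FPKM added in place of 0.1. Pparg, the master regulator of fat cells, which macrophages also express, was at 2.70 FPKM on day 6, against 0.963 FPKM on day 3 (log2 1.39). Cfd (adipsin) was at 39.3 FPKM on day 6, against 19.3 FPKM on day 3 (log2 1.02), and Fabp4 at 47.0 FPKM on day 6, against 36.7 FPKM on day 3 (log2 0.36). Skeletal muscle genes were lower, 4 of 6 at 1 FPKM or more past 2-fold and 2 of them with 1 FPKM added, with a summed level of 5.83 FPKM on day 6, against 16.1 FPKM on day 3, and 12.5 FPKM in vehicle tumors. Tnnc2, a calcium sensor of fast muscle, was at 0.439 FPKM on day 6, against 3.17 FPKM on day 3 (log2 -2.60), and Acta1 (skeletal actin) at 0.601 FPKM on day 6, against 2.20 FPKM on day 3 (log2 -1.71). Tnnt3 (log2 -1.58) and Ckm (log2 -1.57), also of muscle, were past 2-fold lower as well. The part of fat or muscle carried along with the tumor was not tested.

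Of the 17 mammary epithelial and tumor cell genes listed, 15 had a mean below 1 FPKM. How the tumor cells differed therefore cannot be told from this list. Krt8, a keratin of simple epithelia, was at 94.2 FPKM on day 6, against 114 FPKM on day 3 (log2 -0.28), and the receptor Erbb2 at 2.67 FPKM on day 6, against 2.40 FPKM on day 3 (log2 0.15). Krt18, the usual partner of Krt8, was at 0.534 FPKM on day 6, against 0.417 FPKM on day 3. Only Krt8 and Erbb2, 2 of 17 mammary epithelial markers, reached a mean of 1 FPKM. Epcam and Cdh1, which define most epithelia, stayed under 0.4 FPKM on both days, and the milk genes Csn2 and Wap were listed at 0.

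Most genes of cell division were lower by a small amount. None of 22 mitosis or 24 replication genes was past 2-fold, yet 21 and 23 of them lay below day 3, with medians of -0.38 and -0.23. Ube2c, a ubiquitin-conjugating enzyme of mitotic exit, was at 72.9 FPKM on day 6, against 107 FPKM on day 3 (log2 -0.56), with 68.3 FPKM in vehicle tumors. Top2a, which untangles chromosomes, was at 39.5 FPKM on day 6, against 52.3 FPKM on day 3 (log2 -0.40), with 40.5 FPKM in vehicle tumors. Mki67, a widely used marker of dividing cells, went the other way, at 4.06 FPKM on day 6, against 3.12 FPKM on day 3 (log2 0.37), as did Pole, a DNA polymerase subunit (log2 0.33). Cdk1, the kinase that drives entry into mitosis, had the lowest value of the mitosis list, at 22.9 FPKM on day 6, against 39.6 FPKM on day 3 (log2 -0.79). The sliding clamp Pcna and the helicase subunit Mcm6 were at 75.1 FPKM on day 6, against 96.0 FPKM on day 3, for Pcna (log2 -0.35), and at 29.2 FPKM on day 6, against 41.6 FPKM on day 3, for Mcm6 (log2 -0.51). On day 6 the mitosis list lay near vehicle, with a median difference from it of 0.03, against 0.39 on day 3.

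Of the p53 targets, which DNA damage induces, none of 21 at 1 FPKM or more was past 2-fold. Over all genes 4.72% were past 2-fold higher and 0.426% lower, so this is near the general shares. The median difference of all 24 targets was -0.03. Cdkn1a (p21), which stops the cell cycle, was at 51.1 FPKM on day 6, against 57.0 FPKM on day 3 (log2 -0.16), both above the 35.1 FPKM of vehicle tumors. Bax, a mediator of apoptosis, was at 82.5 FPKM on day 6, against 79.0 FPKM on day 3 (log2 0.06).

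Cholesterol synthesis genes, which were below vehicle on day 3, lay lower still on day 6. 19 of 25 lay below day 3, none past 2-fold, with a median difference of -0.25. Their summed level was 150.05 FPKM on day 6, against 189 FPKM on day 3, and 359 FPKM in vehicle tumors. Fdps, the synthase of farnesyl diphosphate, was at 20.9 FPKM on day 6, against 30.4 FPKM on day 3 (log2 -0.54), and Msmo1, a later oxidase of the pathway, at 16.1 FPKM on day 6, against 21.2 FPKM on day 3 (log2 -0.40). The number past 2-fold below vehicle was 16 on day 6 and 12 on day 3. Hmgcs1 was listed at 0 in every group, which for a gene of this pathway may be a failed estimate. Fatty acid synthesis genes were level, with a median of -0.07, Scd2 at -0.17 and Elovl1 at 0.46.

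Genes that every cell uses are set beside these small differences. All but 1 of 20 ribosomal protein genes lay below day 3, with a median of -0.26, and Rplp1 and Rpl13 were at -0.44 and -0.39. Glycolysis genes had a median of -0.04, with Gapdh at 1181 FPKM on day 6, against 1109 FPKM on day 3 (log2 0.09), and Eno1 at 0.08. The median of mitosis genes (-0.38) is nearer to that of ribosomal protein genes than to that of glycolysis genes. Against vehicle these lists differed, with day 6 medians of 0.03 for mitosis and -0.43 for ribosomal protein genes. The medians of T cell, macrophage and MHC class II genes, day 6 against day 3, are several times larger. Among immediate early and heat shock genes, Fos was past 2-fold higher at 7.55 FPKM on day 6, against 3.24 FPKM on day 3 (log2 1.19), while the abundant Junb (log2 -0.11) and the chaperone Hsp90aa1 (log2 -0.31) lay below day 3.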

How the data were processed

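RNA was measured in 12 libraries of pooled E0771 tumor RNA, 2 libraries per group. Per the labels, the authors made directional poly(A) libraries. The submitters' processing notes name TopHat2, featureCounts, edgeR and the mm9 build, without their roles. Tool versions are not given in the sources used here. Per gene and group, the deposited table has 1 FPKM value, next to 15 columns of the authors' comparisons (ratios, fold changes and p-values), which were not used. The planned tests need values per library, so none was run. The study gives an average read depth of its tumor libraries and lists sequencing statistics, which were not used here for depth. In 994 single-exon genes, the lowest FPKM values times gene length lay on steps such that 1 FPKM in a gene of 1 kb equals 85 to 88 steps on day 6 and 85 to 86 on day 3, and what 1 step stands for is not stated.

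Groups were taken from the sample labels. For each of 24197 gene rows, log2((day 6 + 0.1)/(day 3 + 0.1)) was computed in Python 3.11.15 with numpy 2.4.6 and pandas 2.3.3, and plots were drawn with matplotlib 3.10.9. Of the rows, 22846 matched a mouse symbol, 1160 a synonym and 164 neither, and 27 had symbols turned into dates. Genes were named by rule. These were the 12 largest differences in each direction among genes past 2-fold with at least 5 FPKM on either day, up to 4 members past 2-fold and the 2 most abundant of each of 32 lists, and the genes the study measured by qPCR. Other genes were named as defining markers or after their values were seen. The comparison and the lists were chosen with earlier results of these data known. Counting of genes past 2-fold was tested on simulated data. The changes put in were far from 2-fold and in genes above the minimum level. The test therefore says nothing of genes near either threshold. Alternatives were other pseudocounts (0.01 and 1 FPKM), minimums, centring and folds. Gene positions are those of the deposited table (mm9), and promoter sequences are from RefSeq (GRCm38.p6).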

Additional observations from a re-analysis of the deposited data

How the results depend on the processing

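The counts of genes past 2-fold, 499 higher and 45 lower on day 6, were 297 higher and 21 lower with 1 FPKM added in place of 0.1, 1036 higher and 156 lower with no minimum level, 185 higher and 20 lower with a mean of at least 5 FPKM and 910 higher and 225 lower past 1.5-fold. The share higher among genes past the threshold was 91.7%, against 80.2% past 1.5-fold. With 0.01 FPKM added, a mean over all 6 groups, recentring on the median, shared values counted once, or microRNA and snoRNA rows left out (chosen after seeing the data), the counts stayed within 460 to 521 higher and 34 to 51 lower. Of 136 named genes, 11 were no longer past 2-fold with 1 FPKM added, Ccl22, Ccl17, Clec10a, Il1r2, Lum, Vwf, Pparg, Cfd, Acta1, Tnnt3 and Rsad2, and none changed sign. Clec10a was also not past 2-fold after recentring, and Tnfrsf4 passed with 0.01 FPKM added. The medians of the B cell, immediate early and heat shock, endothelial and mammary epithelial lists changed sign under some of these settings. With a mean of at least 5 FPKM few members of the lists of rarer cells were left, of which 1 of 1 T cell, 2 of 3 NK cell, 1 of 2 dendritic cell and 0 of 3 checkpoint genes were past 2-fold higher. No paired analysis was possible because the table holds 1 value per group. Leaving out a library, DESeq2, a replicate block and a filter on counts were not run for the same reason. The pooled values carry no error, so differences of single genes at low levels are uncertain.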

Other observations

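Gene families picked by symbol after the values were seen give a wider view of the same difference, as counts with no test. Of the chemokine receptors, 7 of 8 with a mean of at least 1 FPKM were past 2-fold higher on day 6. The summed level of all 19 rows was 63.5 FPKM on day 6, against 22.5 FPKM on day 3. Of these 19, 11 were below that mean, 15 lay above day 3 and 3 lay below day 3. A gene can reach that mean through day 6 alone, so such counts can favor genes that differ. All 5 CD300 receptors at that level, which tune myeloid cells, were past 2-fold higher, as were 4 of 5 Fc gamma receptors, which bind antibody, 5 of 8 Toll-like receptors, which sense microbes, 8 of 14 C-type lectins of the Clec family, and 6 of 11 paired Ig-like and Lilr receptors. Of the phagocyte NADPH oxidase, which makes superoxide, 5 of 6 subunits were past 2-fold higher. The lysosomal proton pump, which most cells use, had 1 of 18 past 2-fold, with a median of 0.07. Over all genes at that level the share was 4.72%.

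Families that answer interferon did not move together. Both Apol9 genes were past 2-fold lower, with a sum of 17.6 FPKM on day 6, against 38.5 FPKM on day 3. None of 8 Schlafen genes was past 2-fold, and their median was 0.14. The Gbp and Irg GTPases had a sum of 196 FPKM on day 6, against 193 FPKM on day 3.

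Families of basic cell function lay below day 3 by small amounts. Of 81 cytosolic ribosomal protein rows, 74 lay below day 3, with a median of -0.31 and a sum of 47386 FPKM on day 6, against 59155 FPKM on day 3. Of 19 centromere proteins, 18 lay below day 3, with a median of -0.28. Oxidative phosphorylation (-0.06) and the proteasome (-0.07) were closer to 0, with no member past 2-fold.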
